A study of Mus musculus with 6 samples.

Results

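The miR-302/miR-367 cluster is a group of 5 microRNA hairpins of the mouse genome, Mir302a, Mir302b, Mir302c, Mir302d and Mir367, out of 1174 hairpins searched. Its tags were found by exact sense-strand matches of 18 to 26 bases to these hairpins, in 6 libraries of J1 mouse embryonic stem cells. A tag is a distinct small RNA sequence with its read count, and numbers of tags below count reads unless called distinct. No measured value entered the choice of hairpins, but earlier results of these data were known when it was made. The cells were adapted to gelatin, grown in a serum replacement medium, and all kept for 24 h in 1000 U/ml leukemia inhibitory factor, which holds them in the self-renewing state. The treatments were retinoic acid at 1 µM, which drives differentiation, the GSK3 inhibitors BIO at 1 µM and CHIR99021 at 3 µM, and vitamin C at 50 µg/ml, an enzyme cofactor. DMSO (1 µL) was the control of the first 3, and ddH2O (1 µL) that of vitamin C. Each group had 1 library, so no p-value was possible. Every interval below is a 95% interval for counting error only, since the reads carried no molecular identifiers, so that copies of 1 molecule could be counted more than once, and the variation between cultures was not measured.

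MicroRNAs are cut from hairpins, and either side of the stem, the 5p or the 3p arm, can yield a mature strand that binds messenger RNAs through its seed, bases 2 to 8. The miR-302/miR-367 cluster is transcribed as 1 primary RNA and is known from pluripotent cells of the early embryo. It is abundant in human and in primed mouse pluripotent cells, whereas naive mouse embryonic stem cells rely more on the miR-290-295 cluster, whose main 3p strands share the miR-302 seed. Targets reported for that seed include inhibitors of the cell cycle, and the miR-302 strands can help reprogram somatic cells.

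On GRCm38 the cluster covers chr3:127545228-127545807, 580 bases on the plus strand. In order from 5′ to 3′ the hairpins are Mir302b (ENSMUSG00000076252.1), Mir302c (ENSMUSG00000065482.1), Mir302a (ENSMUSG00000065552.1), Mir302d (ENSMUSG00000065447.1) and Mir367 (ENSMUSG00000065413.2), with 43 to 65 bases between neighbours. The whole stretch lies antisense inside Larp7, a gene for an RNA-binding protein, in intron 8 of its 13-exon transcript and intron 5 of its 6-exon transcript, with 0 exonic bases. RefSeq held 9 of the 10 possible mature strands, printed here with the seed in capitals because the seed families and the strand that dominates are what the results turn on. The 3p strands of the miR-302 hairpins held by RefSeq are:
miR-302b-3p: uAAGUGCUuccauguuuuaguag
miR-302c-3p: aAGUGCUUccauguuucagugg
miR-302d-3p: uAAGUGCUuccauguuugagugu

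The 3p strands of Mir302b, Mir302c and Mir302d share a run of 16 bases, aagugcuuccauguuu, and differ after it. The annotated strand of miR-302c-3p begins 1 base later in that run, so its seed is AGUGCUU in place of AAGUGCU. The miR-302a-3p strand was counted by its place in the hairpin. The 5p strands are:
miR-302a-5p: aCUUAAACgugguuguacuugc
miR-302b-5p: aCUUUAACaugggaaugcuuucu
miR-302c-5p: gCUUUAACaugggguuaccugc
miR-302d-5p: aCUUUAACauggaggcacuugcu

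Those of Mir302b, Mir302c and Mir302d share the seed CUUUAAC, and miR-302a-5p has CUUAAAC. Mir367 belongs to another seed family, that of miR-25 and miR-92, and its strands are:
miR-367-5p: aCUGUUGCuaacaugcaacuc
miR-367-3p: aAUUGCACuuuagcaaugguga

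The libraries held 18870345 to 23758363 tags, of which 731469 (3.78%, retinoic acid) to 2160133 (11.4%, DMSO) were microRNA tags. Levels are given as counts per 1000000 microRNA tags of the library (CPM). The stem cell cluster miR-290-295 stood at 272337 to 341624 CPM in 5 libraries and 167929 after retinoic acid, and microRNAs of the Hox clusters stood at 57747 CPM after retinoic acid against 973 to 1899 elsewhere. Of the other marker lists, let-7 ranged from 72390 to 97526, fibroblast markers from 1472 to 2212, blood cell markers from 179 to 323, neural markers from 1252 to 5779 and muscle markers from 587 to 6306 CPM. The liver microRNA miR-122 stood at 1321 CPM in the CHIR99021 library and at 22.3 to 54.7 in the rest. Whether the RNA of other cell types, or the low microRNA share after retinoic acid, takes part in the results below was not tested. In bulk RNA, fewer cells carrying a microRNA and less of it per cell cannot be told apart.

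Tags of the cluster were scarce in these cells. In all, 63 distinct tags with 1546 reads matched it over the 6 libraries, 0 of them matched a second hairpin, and 0 lay in another annotated transcript on the same strand. No tag matched the antisense strand, and none of 27 to 44 bases matched. Summed over its arms the cluster gave 287 tags or 133 CPM (interval 118 to 149) with DMSO and 185 tags or 106 CPM (90.9 to 122) with ddH2O. It gave 79 tags or 108 CPM (85.5 to 135) with retinoic acid, 584 tags or 278 CPM (256 to 301) with BIO, 235 tags or 164 CPM (144 to 186) with CHIR99021 and 176 tags or 92.6 CPM (79.5 to 107) with vitamin C. By this count and scaling BIO therefore stood above all the other libraries and CHIR99021 was next, each apart from its lower neighbour beyond counting error. DMSO, retinoic acid, ddH2O and vitamin C followed without a gap between neighbours that counting error would not cover.

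**Figure D1:**
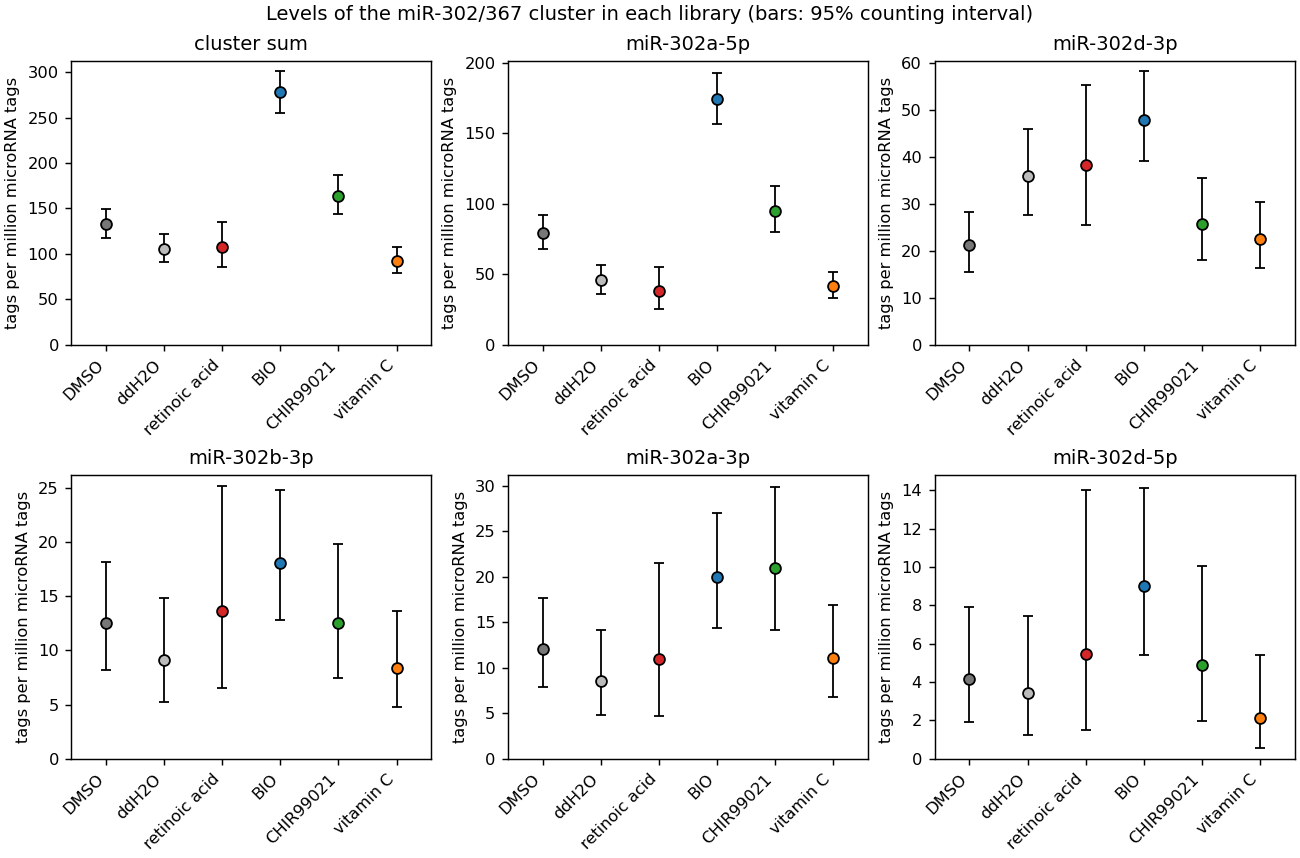
CPM (linear axes, different ranges) of the cluster sum and of its 5 most abundant arms in the 6 libraries, 1 point a library, bars the 95% Clopper-Pearson interval. BIO is highest in each panel but that of miR-302a-3p, where CHIR99021 (20.9 CPM) and BIO (19.96 CPM) lie together.

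The most abundant strand was miR-302a-5p, the strand opposite the one that carries the shared miR-302 seed. It was counted 171 times with DMSO (79.2 CPM), 80 with ddH2O (45.7 CPM), 28 with retinoic acid (38.3 CPM), 366 with BIO (174 CPM), 136 with CHIR99021 (94.9 CPM) and 79 with vitamin C (41.6 CPM). BIO lay above CHIR99021, and DMSO above ddH2O, beyond counting error, whereas CHIR99021 and DMSO overlapped, as did ddH2O, vitamin C and retinoic acid. The arm alone made 59.6% of the cluster's tags with DMSO, 62.7% with BIO and 57.9% with CHIR99021, but 43.2% with ddH2O, 44.9% with vitamin C and 35.4% with retinoic acid.

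miR-302d-3p, a strand with the shared seed, came next, equal to miR-302a-5p in tags with retinoic acid, and followed another order. It had 46 tags with DMSO (21.3 CPM), 63 with ddH2O (35.95 CPM), 28 with retinoic acid (38.3 CPM), 101 with BIO (48.0 CPM), 37 with CHIR99021 (25.8 CPM) and 43 with vitamin C (22.6 CPM). No library stood apart from its nearest neighbour in that order beyond counting error, and DMSO was the lowest. The other strand of this hairpin, miR-302d-5p, had 4 to 19 tags, from 2.11 CPM with vitamin C to 9.03 CPM with BIO.

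The 3p strands of Mir302a and Mir302b, which carry the same seed, were near the level of 10 CPM below which no difference was called. miR-302a-3p ranged from 8.56 CPM (15 tags, ddH2O) to 20.9 CPM (30 tags, CHIR99021), and miR-302b-3p from 8.42 CPM (16 tags, vitamin C) to 18.1 CPM (38 tags, BIO). Neighbours in either order overlapped throughout. miR-302b-5p was seen 10 times in all, in 4 of the 6 libraries.

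Mir302c and Mir367 were barely detected, although both belong to the same primary RNA. miR-302c-3p had 2 to 7 tags in 5 libraries and 0 with retinoic acid. There the limit of 3 counts set for a count of 0 is 4.10 CPM, and the upper 95% limit is 5.04 CPM. The other arm, miR-302c-5p, had 0 tags in all 6 libraries. The limit of 3 counts lay between 1.39 CPM (DMSO) and 4.10 CPM (retinoic acid), and the upper 95% limits there were 1.71 and 5.04 CPM. miR-367-3p had 1 tag with DMSO, 8 with BIO, 3 with CHIR99021, 5 with vitamin C and 0 with ddH2O and retinoic acid. The BIO to DMSO ratio of these few miR-367-3p tags was 8.21 with an interval from 1.10 to 364, under the minimum level for a call. Only CHIR99021 had tags of miR-367-5p, 2 in number. Levels along the cluster did not follow the order of the hairpins: with both arms summed, the DMSO library held 14.4 CPM of Mir302b, 1.39 of Mir302c, 91.2 of Mir302a, 25.5 of Mir302d and 0.463 of Mir367, and the third and the fourth hairpin also led in the other 5 libraries.

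The strand that prevailed differed between neighbouring hairpins. In Mir302a the 5p arm held 86.8% of the tags with DMSO (171 of 197, interval 81.3 to 91.2), 84.2% with ddH2O, 77.8% with retinoic acid, 89.7% with BIO, 81.9% with CHIR99021 and 79.0% with vitamin C. In Mir302d it held 16.4% with DMSO (9 of 55, interval 7.77 to 28.8) and 8.51 to 15.9% in the other 5 libraries. Mir302b leaned the same way as Mir302d, with 0 to 12.9% on the 5p arm and at most 42 tags a library. Over the whole cluster the 5p share was 64.1% with DMSO (interval 58.3 to 69.7), 66.6% with BIO (62.6 to 70.4) and 61.7% with CHIR99021 (55.2 to 67.9). It was 46.5% with ddH2O (39.1 to 54.0), 47.7% with vitamin C (40.2 to 55.4) and 41.8% with retinoic acid (30.8 to 53.4), so the first 3 libraries lay above the last 3, and of the 9 pairs of intervals only that of CHIR99021 and vitamin C overlapped. Within Mir302a alone the intervals of all libraries overlapped, at 75.3 to 90.9 with ddH2O and 60.8 to 89.9 with retinoic acid. The cluster share also depends on how much each hairpin supplies. Mir302a supplied 197 of 287 cluster tags with DMSO, 408 of 584 with BIO and 166 of 235 with CHIR99021. It supplied 95 of 185 with ddH2O, 100 of 176 with vitamin C and 36 of 79 with retinoic acid.

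The hairpins below are printed with the annotated mature strands in capitals, to show where the counted arms sit. Mir302d gave mostly its right-hand strand, and Mir302c and Mir367 gave almost none:
Mir302d: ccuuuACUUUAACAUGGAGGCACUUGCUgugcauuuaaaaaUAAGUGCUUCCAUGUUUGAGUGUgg
Mir302c: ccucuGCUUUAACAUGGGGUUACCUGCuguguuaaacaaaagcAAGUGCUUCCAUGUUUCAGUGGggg
Mir367: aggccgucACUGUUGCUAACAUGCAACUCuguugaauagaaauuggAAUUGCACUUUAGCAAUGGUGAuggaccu

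The tags of miR-302a-5p came in forms that differ at both ends, and 3 of them are printed because they carry most of its reads. They are written as DNA, as sequenced, with bases 2 to 8 of each in capitals:
23 bases from the annotated start: aCTTAAACgtggttgtacttgct
22 bases from the annotated start: aCTTAAACgtggttgtacttgc
22 bases from 3 bases later: tAAACGTGgttgtacttgcttt

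The 23-base form, 1 base longer than the RefSeq strand, was the most read tag of the cluster with 398 reads. Next came the 23-base tag of miR-302d-3p with 217 reads, then the RefSeq form of miR-302a-5p with 191 and the form that begins 3 bases later with 116. The later start shifts the seed from CTTAAAC to AAACGTG. All tags with this later start made 13.5% of miR-302a-5p with DMSO (23 of 171, interval 8.72 to 19.5), 13.9% with BIO (51 of 366, 10.6 to 17.9) and 20.6% with CHIR99021 (28 of 136, 14.1 to 28.4). They made 22.5% with ddH2O (18 of 80, 13.9 to 33.2), 27.8% with vitamin C (22 of 79, 18.3 to 39.1) and 42.9% with retinoic acid (12 of 28, 24.5 to 62.8). The interval with retinoic acid lay above those with DMSO and BIO and overlapped the other 3.

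Of these forms the 23-base one spanned the widest range, from 5.47 to 99.3 CPM. The forms were set apart after their values had been seen. The 23-base form stood at 40.3 CPM with DMSO (87 tags), 13.7 with ddH2O (24), 5.47 with retinoic acid (4), 99.3 with BIO (209), 41.2 with CHIR99021 (59) and 7.90 with vitamin C (15). The 22-base RefSeq form stood at 16.7, 15.98, 8.20, 31.8, 22.3 and 11.6 CPM in the same order. The later start stood at 10.6, 10.3, 16.4, 24.2, 19.5 and 11.6 CPM. Between the vehicles the 23-base form was 2.94-fold lower in ddH2O (interval 1.85 to 4.83), while the ratio of ddH2O to DMSO was 0.959 (0.564 to 1.62) for the RefSeq form and 0.965 (0.491 to 1.87) for the later start. After retinoic acid the tags with the annotated start were 3.32-fold below DMSO (interval 1.95 to 6.08), and those with the later start stood at a ratio of 1.54 (0.699 to 3.23). After BIO both starts were higher than with DMSO, 2.18-fold (1.79 to 2.67) and 2.28-fold (1.37 to 3.90). Of all microRNA tags, 23-base tags made 25.9% with BIO and 21.6 to 23.03% in the other libraries. Of the tags of any kind, those of 18 and 19 bases ranged from 8.01% with BIO to 18.7% with vitamin C. The part of tag length in these differences was not tested.

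**Figure D2:**
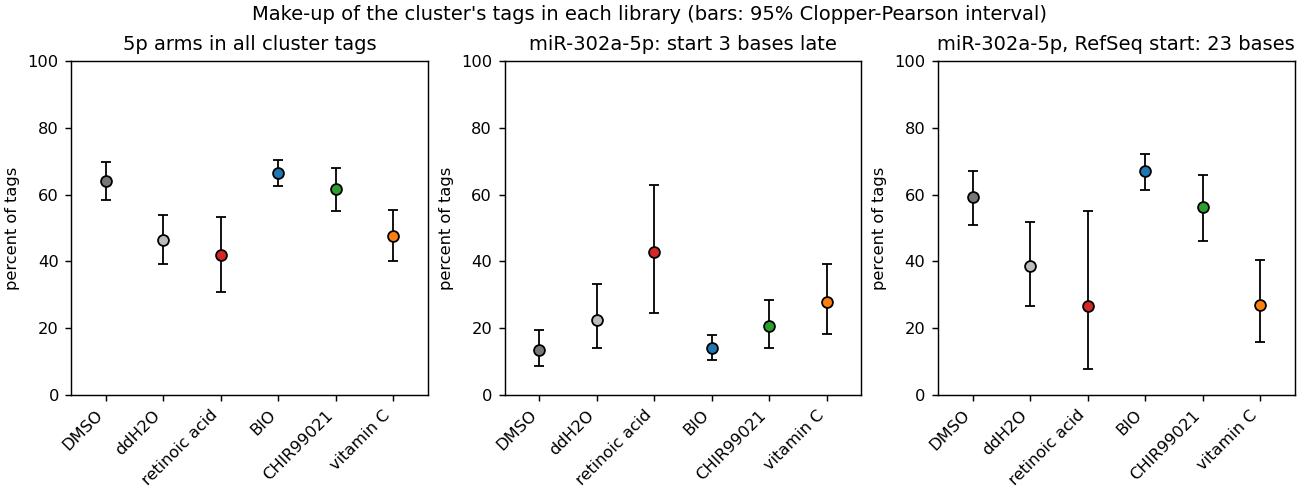
Percent of all cluster tags on 5p arms (left), percent of miR-302a-5p tags that begin 3 bases after the annotated start (middle) and percent of 23-base tags among those with the annotated start (right), 1 point a library with its 95% Clopper-Pearson interval. DMSO, BIO and CHIR99021 lie at 61.7% or more in the left panel and ddH2O, retinoic acid and vitamin C at 47.7% or less, and retinoic acid is highest in the middle panel at 42.9%. The left panel pools hairpins whose part of the cluster differs between libraries.

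The first bases of the 3p tags set which seed they carry. Of 608 tags on the miR-302 3p arms in all libraries, 480 or 78.9% (interval 75.5 to 82.1) had AAGUGCU in the seed position, 18.3% had AGUGCUU and 2.80% GUGCUUC. By arm, AAGUGCU held 87.1% of miR-302d-3p tags, 79.6% of miR-302a-3p tags and 68.8% of miR-302b-3p tags. In miR-302c-3p, whose annotated strand starts a base later, 19 of 23 tags carried AGUGCUU.

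The retinoic acid comparison asks how the cluster fares 24 h into induced differentiation. The sum of the cluster was 108 CPM against 133 with DMSO, a ratio of 0.813 with an interval (0.625 to 1.05) that includes no difference under this scaling, whereas the miR-290-295 sum stood at a ratio of 0.576 (0.573 to 0.580). The arms of the miR-302/miR-367 cluster lay on either side of 1. miR-302a-5p was 2.07-fold lower (interval 1.38 to 3.20), and miR-302d-3p stood at a ratio of 1.80 (1.08 to 2.94), above 1 but short of 2-fold. miR-302a-3p (0.909, interval 0.356 to 2.07) and miR-302b-3p (1.09, 0.472 to 2.33) were too thinly counted to tell a halving from a doubling. A difference was called at 10 CPM in the higher library, a ratio of 2-fold or more and an interval that excludes 1. By that rule 1 of 4 member arms at or above 10 CPM was lower and 0 higher, where 7.42% of all 539 arms compared were called lower and 32.5% higher. The call on miR-302a-5p ended when tags with untemplated 3′ bases were counted (log2 ratio -1.0) and against the ddH2O library (-0.25), and against ddH2O miR-302d-3p stood at a log2 ratio of 0.09. Scaled by TMM, which shifts every log2 ratio of this comparison by -0.50, the log2 ratio of the sum lay at -0.80 (interval -1.18 to -0.44), and with median-of-ratios factors at -0.67 (-1.05 to -0.30). Scaled to all tags of the library the sum lay at -1.90 (-2.28 to -1.53), and miR-302d-3p turned to -0.75. With TMM the log2 ratio of miR-302d-3p was 0.343 (-0.39 to 1.05). With median-of-ratios factors it was 0.477 (-0.255 to 1.186), and both intervals include 0. The interval of the sum excluded 0 under these scalings, and also when only starts within 2 bases of an arm's leading tag were counted (-0.82 to -0.02) or tags counted once were left out (-0.85 to -0.06).

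Of the 4 compounds, BIO alone took the cluster sum past 2-fold of its vehicle in CPM. The sum was 2.09-fold higher than with DMSO (interval 1.81 to 2.41), miR-302a-5p 2.20-fold (1.83 to 2.65) and miR-302d-3p 2.25-fold (1.58 to 3.27). miR-302a-3p stood at a ratio of 1.66 (0.994 to 2.82) and miR-302b-3p at 1.45 (0.859 to 2.46). So 2 of the 4 member arms compared were called higher and 0 lower, where 1.89% of 477 arms were called higher and 5.03% lower. With both arms summed, Mir302a (2.13-fold, 1.79 to 2.53) and Mir302d (2.24-fold, 1.62 to 3.14) rose, and Mir302b stood at 1.39 (0.854 to 2.29). Without miR-302a-5p the rest of the cluster was at a ratio of 1.93 (1.53 to 2.44). Scaled to all tags of the library the sum fell below the 2-fold mark (log2 ratio 0.79), as did miR-302a-5p (0.86) and miR-302d-3p (0.90), and against ddH2O miR-302d-3p was no longer called (0.42) while miR-302a-3p was (1.22).

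CHIR99021 inhibits the same kinase and was used at another dose. Its cluster sum stood at a ratio of 1.23 to DMSO (interval 1.03 to 1.47) in CPM. The interval of its log2 ratio included 0 with starts within 2 bases of an arm's leading tag (-0.02 to 0.52) and with leading tags only (-0.26 to 0.48). It also did so without miR-302a-5p (-0.04 to 0.76), and lay above 0 under the other alternatives but the all-tags scaling. Scaled to all tags, the sum lay below DMSO at a log2 ratio of -0.62, as did the 4 arms that follow. miR-302a-5p stood at 1.20 (0.95 to 1.51), miR-302d-3p at 1.21 (0.765 to 1.91), miR-302a-3p at 1.74 (0.994 to 3.06) and miR-302b-3p at 1.00 (0.521 to 1.89). Of the 4 member arms compared, 0 were called in either direction, where 6.0% of 483 arms were called higher and 12.2% lower. Against ddH2O, 2 arms would have been called higher, miR-302a-5p (log2 ratio 1.06) and miR-302a-3p (1.29), and miR-302d-3p turned to -0.48. Side by side with BIO, at 3 µM against 1 µM, the CHIR99021 sum was 1.69-fold lower (interval 1.45 to 1.98). In that pair miR-302a-5p was 1.83-fold lower (1.5 to 2.25) and miR-302d-3p 1.86-fold lower (1.26 to 2.79), while miR-302a-3p stood at a ratio of 1.05 (0.634 to 1.72). Of 4 member arms 0 were called in either direction, where 7.02% of 484 arms were called higher and 5.99% lower in CHIR99021, and the doses differed.

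After vitamin C the sum stood at a ratio of 0.877 to ddH2O (interval 0.710 to 1.08). miR-302a-5p stood at 0.911 (0.659 to 1.26) and miR-302a-3p at 1.29 (0.634 to 2.69), and miR-302d-3p was 1.59-fold lower (1.06 to 2.40), short of a call. With DMSO as the control, the log2 ratio of miR-302d-3p changed sign, to 0.09, and that of miR-302a-5p was -0.93 (interval -1.33 to -0.54). Of 3 member arms compared 0 were called, where 5.73% of 489 arms were called higher and 1.02% lower.

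The vehicle libraries themselves differed in the cluster. The ddH2O sum was 1.26-fold below DMSO (interval 1.04 to 1.52). Its 2 main arms differed in opposite directions: miR-302a-5p was 1.73-fold lower in ddH2O (1.32 to 2.29), and miR-302d-3p was 1.69-fold higher in CPM (1.14 to 2.53). Both intervals exclude 1 and both values are short of 2-fold, so 0 of 4 member arms were called, where 5.35% of 486 arms were called higher and 2.47% lower. Whether this difference comes from the vehicles or from the libraries cannot be told apart, with 1 library each. The comparisons of retinoic acid, BIO and CHIR99021 share the DMSO library, in which miR-302d-3p was at its lowest.

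**Figure D3:**
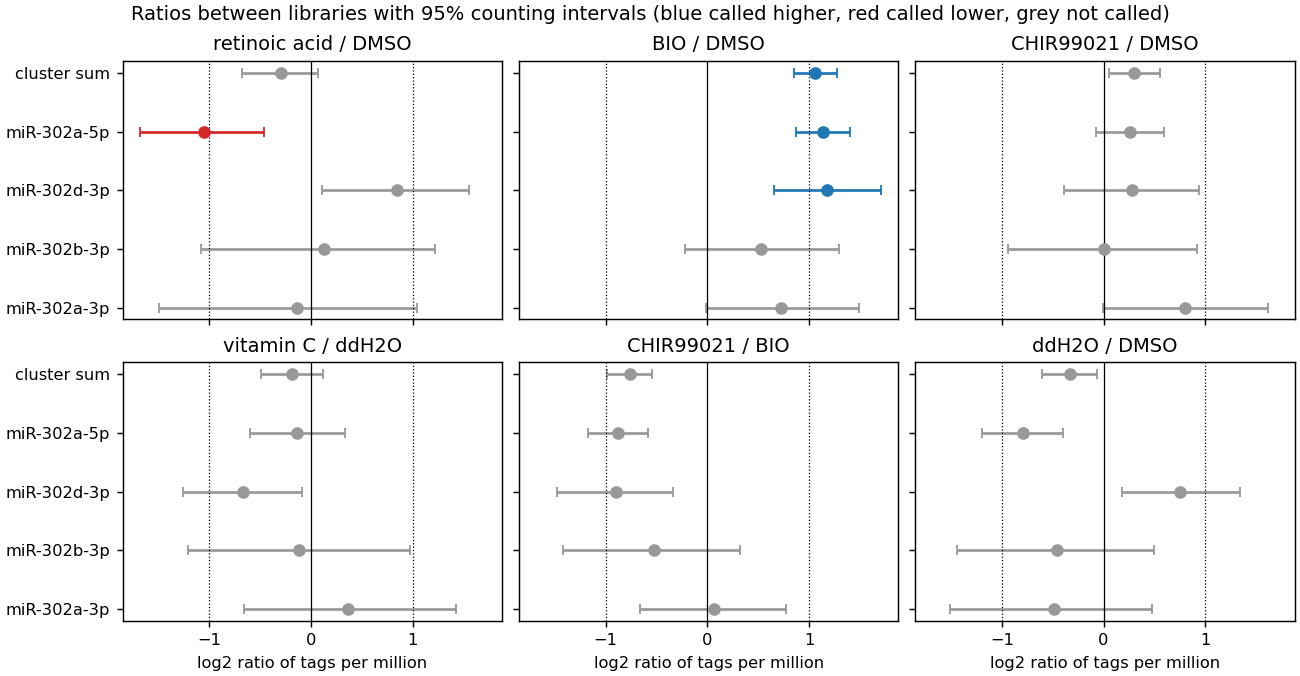
Log2 ratios of CPM of the cluster sum and of the 4 member arms that reached 10 CPM in any library, in the 6 comparisons. Bars are 95% exact conditional binomial intervals. In vitamin C against ddH2O, miR-302b-3p lay below 10 CPM in both libraries (8.42 and 9.13) and was not compared for a call. Dotted lines mark 2-fold. Only the sum, miR-302a-5p and miR-302d-3p after BIO (blue) and miR-302a-5p after retinoic acid (red) pass the call; miR-302a-5p and miR-302d-3p lie on opposite sides of 0 in retinoic acid and in ddH2O against DMSO.

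Set beside arms with the same seeds elsewhere, the cluster supplied few tags. Outside it, AAGUGCU was the seed of 3 arms, all of miR-290-295: miR-294-3p with a mean of 24896 CPM over the libraries, miR-295-3p with 20240 and miR-291a-3p with 4109. Together they ranged from 39594 CPM with retinoic acid to 62146 with CHIR99021, against 45.8 to 88.9 CPM for the 4 miR-302 3p arms. Counted by arm, whatever the seed of the single tag, the miR-302 3p arms made 0.0962% of the tags of these 7 arms with DMSO (interval 0.0784 to 0.117), 0.122% with ddH2O, 0.159% with retinoic acid (0.116 to 0.211), 0.176% with BIO (0.152 to 0.204), 0.0976% with CHIR99021 and 0.0954% with vitamin C. Of these miR-302 3p tags, 78 of 102 with DMSO, 83 of 99 with ddH2O and 138 of 187 with BIO carried AAGUGCU itself, and miR-302c-3p mostly carried AGUGCUU. The BIO share by arm lay above those with DMSO, CHIR99021, ddH2O and vitamin C without overlap of the intervals, narrowly for ddH2O (0.0989 to 0.148). Shares by the seed of the single tag were not computed. In BIO against DMSO the 3 outside arms were at a summed ratio of 1.03 (1.02 to 1.03), beside 1.88 (1.47 to 2.42) for the 4 miR-302 3p arms. None of the 3 was called in any of the 6 comparisons, for which the shares of all arms called are given above.

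For the miR-367 seed AUUGCAC the imbalance was larger. The 5 outside arms were miR-25-3p (mean 42636 CPM), miR-92a-3p (13373), miR-92b-3p (2311), miR-363-3p (1243) and miR-32-5p (131), which belong to the miR-17-92 family of clusters and relatives and are expressed in many tissues. They summed to 50255 to 68313 CPM, of which miR-367-3p made at most 0.00757% (8 of 105731 tags, BIO). Of them, miR-92b-3p was called lower with CHIR99021, 1030 CPM against 2516 with DMSO and 2085 with BIO, and no other was called. Over all arms compared, 12.2% were called lower with CHIR99021 against DMSO and 5.99% against BIO.

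**Figure D4:**
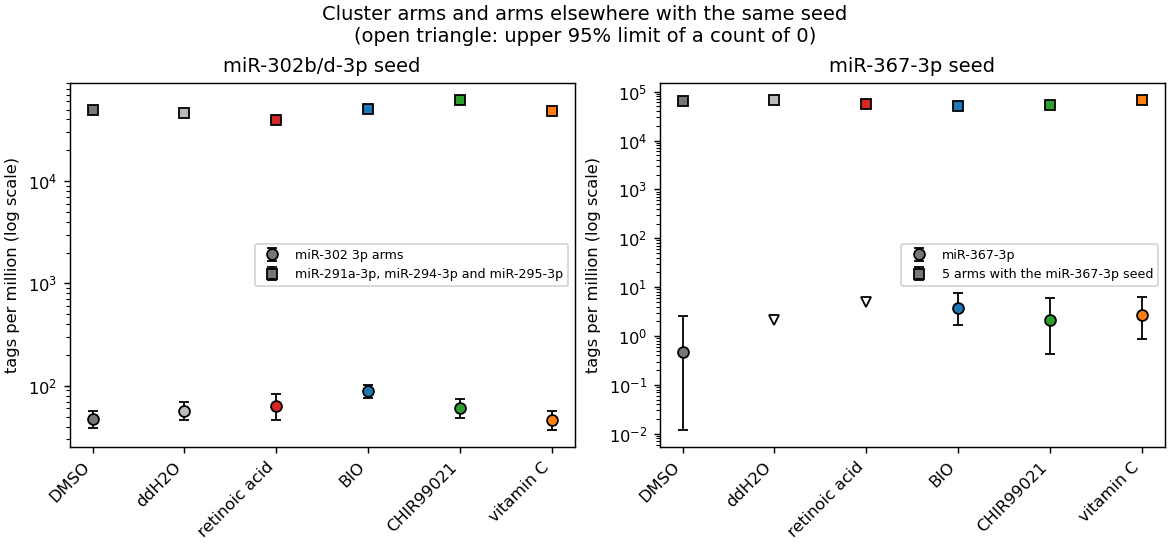
CPM on log axes of the cluster's arms (circles) and of arms elsewhere with the same seed (squares), for the miR-302 seed (left) and the miR-367 seed (right), in the 6 libraries with 95% Clopper-Pearson intervals. The outside arms sum to 39594 CPM or more on the left and 50255 CPM or more on the right, and the miR-302 3p arms to 88.9 CPM or less.

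The values of the related clusters are given beside these. In miR-290-295, a list of 9 hairpins with 14 arms compared, 4 arms were called lower and 0 higher with retinoic acid (median log2 ratio -0.74, beside 0.35 for 488 arms of all microRNAs), and 0 were called in the other 5 comparisons. With BIO its summed ratio to DMSO was 1.05 (1.05 to 1.06), beside 2.09 for miR-302/miR-367. Among miR-17-92 and its paralogs, 15 hairpins that hold miR-25, miR-92a and miR-363, 0 of 23 arms compared were called with BIO. With retinoic acid 1 was called higher and 3 lower of 24. In ddH2O against DMSO 1 was called higher and 2 lower of 24. With vitamin C 1 of 24 was called higher, and with CHIR99021 1 of 25, against DMSO and also against BIO. Over all arms compared, 1.89% were called higher and 5.03% lower with BIO, and 32.5% higher and 7.42% lower with retinoic acid. The shares for the other comparisons are given above.

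Likeness to the cluster sum was measured as the root mean square difference of centred log2 CPM over the 6 libraries, among 484 arms at 10 CPM or more on average outside it. The nearest were miR-365-2-5p (0.20), miR-200b-5p (0.27), miR-193a-5p (0.29), miR-702-5p (0.30) and miR-92a-1-5p (0.33), where the median arm lay at 0.77. miR-365-2-5p stood at 349 CPM with BIO and 295 with CHIR99021, against 207 with DMSO, 200 with retinoic acid, 168 with vitamin C and 153 with ddH2O.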

How the data were processed

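Small RNA of 6 libraries, 1 per group, was read from the deposited tag lists, which hold raw counts per distinct sequence of 18 to 44 bases; each tag's length is listed beside its count. Per the labels, libraries came from 1 µg of total RNA with a TruSeq RNA kit. The submitters' processing notes name mm9; trimming and filters are not given in the sources used here, and the BIO raw reads are described as lost. The deposited files hold no gene names or coordinates, so positions are those of GENCODE M21 and RefSeq on GRCm38.

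Tags of 18 to 26 bases were matched exactly to 1174 hairpins. Tags that also match rRNA, mitochondrial RNA, snoRNA, scaRNA or snRNA were left out. Every tag on one side of a hairpin's middle counted for that arm, as the rule for the members asks. A window of 2 bases around the start of the most abundant tag, which would drop the later start of miR-302a-5p, became an alternative, chosen after seeing the data. Arms whose leading tag was identical were treated as 1 arm, and a tag found on several arms was shared equally among them. Counts were scaled to microRNA tags (CPM). Ratios carry an exact conditional binomial (Clopper-Pearson) interval, and a count of 0 a limit of 3 counts. Medians and likeness used a pseudocount of 0.5. With 1.39 CPM (DMSO) to 4.10 CPM (retinoic acid) as that limit, rare arms are poorly resolved.

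All member arms with a tag are named, with up to 6 outside arms per seed by mean CPM and the 5 most alike in profile. The members, lists and rules were chosen with earlier results of these data known. The counting was tested on simulated data. Software was Python 3.11.15, scipy 1.17.1, edgeR 4.0.16 (TMM) and DESeq2 1.42.0 (median-of-ratios), the last pair for scaling factors only. Alternatives were other scalings, levels, lengths, tag rules and the other vehicle library.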

Additional observations from a re-analysis of the deposited data

How the results depend on the processing

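Values here are log2 ratios of the cluster sum or numbers of member arms called. Scaled to all tags, the retinoic acid sum moved to -1.90 (3 arms called, all lower), that of BIO to 0.79 (0 called), that of CHIR99021 to -0.62, CHIR99021 against BIO to -1.41 (3 called lower) and ddH2O against DMSO to -0.74 (1 called lower). That total is set by how much other RNA a library holds, and miR-302b-3p turned from 0.13 to -1.47 in retinoic acid. With TMM the retinoic acid sum was -0.80; TMM shifts every log2 ratio by -0.50 for retinoic acid, 0.13 for BIO and -0.11 for ddH2O against DMSO, and the all-tags scaling by -1.60, -0.28 and -0.41, by -0.92 for CHIR99021 and by -0.65 for CHIR99021 against BIO. Without miR-302a-5p the sums were 0.38 for retinoic acid, 0.95 for BIO and 0.16 for ddH2O against DMSO. With the other vehicle as control the sum was 0.64 for CHIR99021, -0.52 for vitamin C and 0.03 for retinoic acid, where 0 arms were called, and 2 arms were called higher for CHIR99021. With only the leading tag of each arm counted, the sum was -0.52 for vitamin C and -1.01 for CHIR99021 against BIO, and 2 arms were called for retinoic acid (1 in each direction), 1 lower for CHIR99021 against BIO and 1 lower for ddH2O against DMSO. Counting untemplated ends left 0 arms for retinoic acid, and a minimum of 50 CPM left 1 for BIO. The cause of these moves was not tested beyond the construction of each setting. Of 64 values of the sum under another setting, 51 gave the same call and, where no call was made, lay within the main counting interval. No paired analysis was possible because each group has 1 library. Depth limits Mir302c and Mir367, with at most 8 tags of an arm in a library.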

Other observations

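Some tags of the cluster carried bases at their 3′ end that the hairpin does not encode. Counted over all member arms, tags with 1 to 3 such bases made 5.90% of tailed and exact tags with DMSO (18 of 305, interval 3.53 to 9.17), 6.57% with ddH2O (13 of 198, 3.54 to 11.0) and 10.2% with retinoic acid (9 of 88, 4.78 to 18.5). They made 2.99% with BIO (18 of 602, 1.78 to 4.68), 4.08% with CHIR99021 (10 of 245, 1.97 to 7.38) and 7.85% with vitamin C (15 of 191, 4.46 to 12.6). The intervals of all 6 libraries overlap, except that the one with BIO ends below the start of the one with retinoic acid. A single T was the most frequent addition, with 50 tags, followed by a single A with 21. With retinoic acid the order was the other way, 6 single A and 2 single T, on counts too small to compare.

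The 3′ end of miR-302d-3p was more uniform than that of miR-302a-5p. The annotated last base was the end of 80.4% of its tags with DMSO (37 of 46), 77.8% with ddH2O, 82.1% with retinoic acid, 86.1% with BIO, 73.0% with CHIR99021 and 79.1% with vitamin C. Of all miR-302a-5p tags, the most frequent end was 1 base past the annotated one with DMSO (51.5%), BIO (58.2%) and CHIR99021 (46.3%). It was the annotated base with ddH2O (35.0%) and vitamin C (27.8%), and 3 bases past it with retinoic acid (35.7%). In each library the interval lay below that of miR-302d-3p, narrowly with CHIR99021 (37.7 to 55.1 against 55.9 to 86.2). The Mir302d hairpin ends shortly after the annotated 3p end, which limits longer exact matches.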
